A study of Mus musculus with 2 samples.

Results

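Genes of the lysosome and of autophagy were read in mouse CD8+ T cells on 2 arrays. The set holds 59 of the 22180 genes with a value, read by 62 probe sets. It was chosen by gene symbol alone: 22 symbols starting Atp6v, which name the vacuolar proton pump (V-ATPase), 10 cathepsins, 21 autophagy genes (Atg genes with Sqstm1, Becn1 and Ulk1), 4 lysosome-associated membrane proteins (Lamp) and the pair Tfeb and Mcoln1. One array came from cells grown with bezafibrate, a fibrate that activates PPAR nuclear receptors, dissolved in dimethyl sulfoxide (DMSO) and present at 30 µM throughout the culture. The other came from control cells given DMSO. Both cultures began as naive CD8+ T cells activated by beads coated with antibodies to CD3 and CD28 and received human interleukin-2 at 100 U/mL. The labels mention expanded cells at 13, without a unit, read here as day 13, for other assays and do not say when RNA was taken. They give 1 sample for each treatment and name no strain, sex, age or number of animals. No value therefore has a replicate error, no test was possible, and each ratio compares 2 arrays.

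Lysosomes are acidic compartments in which proteins, lipids and sugars are broken down. The V-ATPase acidifies them: its cytosolic V1 part splits ATP and turns a rotor, and its membrane part, V0, carries protons across. Cathepsins are the proteases that work at the resulting low pH. In cytotoxic T cells related granules also hold perforin and granzymes, and cathepsin C activates progranzymes. Autophagy delivers cytoplasm to the lysosome in a double-membraned vesicle, which the ULK1 complex initiates and the ATG conjugation enzymes help to build. TFEB, a transcription factor held in the cytosol by the kinase mTORC1, binds a site with the core CACGTG in the promoters of many of these genes.

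Levels are RMA log2 signals, and each log2 ratio is bezafibrate minus DMSO. A gene counted as above the floor when its level on the brighter array was over the median of all genes there, 4.85 with bezafibrate and 4.88 with DMSO. A level counted as within background at or under the 95th percentile of 1390 olfactory and vomeronasal receptor genes, 4.68 with bezafibrate and 4.71 with DMSO. Of the 59 members, 49 lay above the floor and 0 of those passed it on only 1 array. Another 9 lay within background on both arrays, at 2.52 to 4.48 with bezafibrate and 2.66 to 4.61 with DMSO. Among all 11446 genes above the floor the central 95% of log2 ratios ran from −0.42 to 0.41. The labelled cell type showed in its markers: the 7 CD8 T cell markers read by a probe set of their own all lay above the floor. They were lower with bezafibrate in 7 of 7 cases, where 49.6% of all genes above the floor were lower. Their median log2 ratio was −0.18, with Cd3d lowest at −0.30. After subtracting the median of genes similar in level and gene length, their median was −0.12, from −0.17 in Cd3d to 0.01 in Cd3e. Whether the markers' difference has a part in the members' ratios was not tested. In a bulk sample fewer cells of a type and less RNA per cell cannot be told apart.

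The differences were small, and the classes leaned to different sides. Of the 49 members above the floor, 28 were lower with bezafibrate and 19 higher, with 2 exactly equal. The shares over all 11446 such genes were 49.6% lower and 48.4% higher. The members' median log2 ratio was −0.02, against 0.00 for all genes. At 1.2-fold, 5 members were lower, namely Atp6v0e, Atp6v1d, Atp6v1f, Atp6v1g1 and Lamp1, and 3 were higher, namely Atg16l2, Ctso and Atg10. Of all genes, 10.4% were lower and 9.58% higher at that limit, so neither count of members stood above the background. At 1.5-fold, 0 members were lower and 0 higher, where all genes gave 0.524% and 0.664%. Only Atp6v0e, at −0.51, lay outside the central 95% of all genes.

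**Figure D1:**
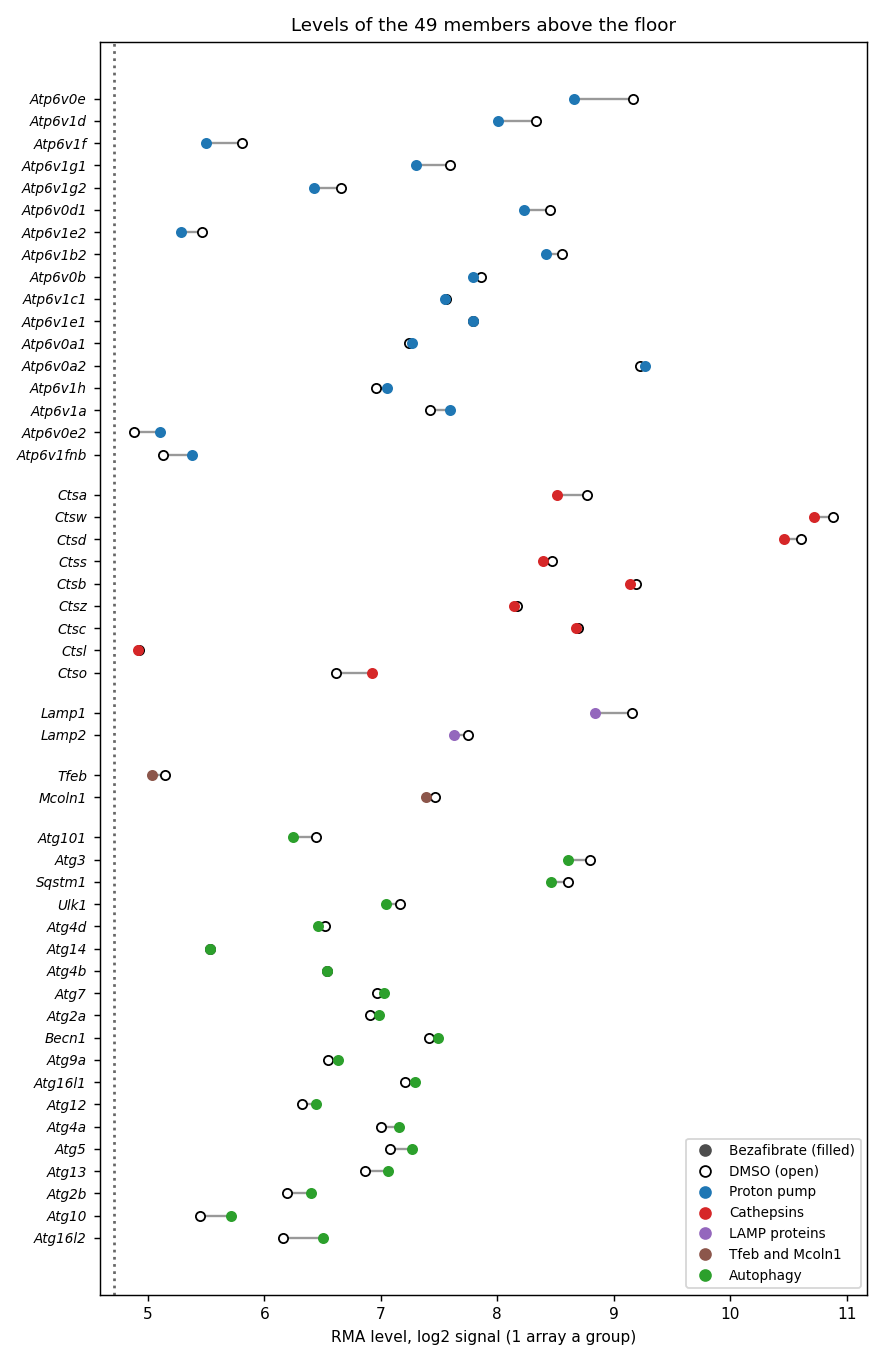
Levels of the 49 members above the floor (horizontal axis, RMA log2 signal), with a filled point for the bezafibrate array and an open point for the DMSO array, coloured by class. The dotted line is the DMSO background limit of 4.71, and levels of different genes are not comparable. Filled points lie left of open ones for Atp6v0e, Atp6v1d and Lamp1 and right of them for Ctso and Atg16l2.

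The promoters of the members with the lowest and the highest ratio among pump, cathepsin and autophagy genes, the 3 largest classes, are shown because the TFEB site offers a feature that the choice of members did not use. They come from RefSeq on build GRCm38.p6 and hold 250 bases before and 50 after an annotated start. They are written 5′ to 3′ with each CACGTG in capitals. The highest pump symbol, Atp6v1fnb, is no subunit of the pump and is not shown.
Atp6v0e (chr17:26676146-26676445, plus strand): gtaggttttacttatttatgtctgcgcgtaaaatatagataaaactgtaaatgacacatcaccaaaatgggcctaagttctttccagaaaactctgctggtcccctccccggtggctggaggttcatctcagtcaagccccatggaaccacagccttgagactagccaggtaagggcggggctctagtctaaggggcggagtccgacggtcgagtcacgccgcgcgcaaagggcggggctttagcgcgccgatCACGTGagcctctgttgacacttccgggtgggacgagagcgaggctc
Ctsa (chr2:164833523-164833822, plus strand): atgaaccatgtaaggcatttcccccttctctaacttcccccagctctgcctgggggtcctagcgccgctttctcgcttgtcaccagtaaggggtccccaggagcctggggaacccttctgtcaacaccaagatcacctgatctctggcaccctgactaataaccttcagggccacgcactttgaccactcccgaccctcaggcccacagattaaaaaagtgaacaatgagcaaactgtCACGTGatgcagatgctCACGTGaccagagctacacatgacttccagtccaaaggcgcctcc
Ctso (chr3:81932351-81932650, plus strand): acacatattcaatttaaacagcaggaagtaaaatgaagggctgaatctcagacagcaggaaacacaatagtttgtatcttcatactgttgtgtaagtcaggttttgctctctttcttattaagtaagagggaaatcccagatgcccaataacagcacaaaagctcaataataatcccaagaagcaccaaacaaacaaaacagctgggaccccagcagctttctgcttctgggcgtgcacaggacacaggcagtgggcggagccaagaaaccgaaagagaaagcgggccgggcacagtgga
Atg101 (chr15:101284051-101284350, plus strand): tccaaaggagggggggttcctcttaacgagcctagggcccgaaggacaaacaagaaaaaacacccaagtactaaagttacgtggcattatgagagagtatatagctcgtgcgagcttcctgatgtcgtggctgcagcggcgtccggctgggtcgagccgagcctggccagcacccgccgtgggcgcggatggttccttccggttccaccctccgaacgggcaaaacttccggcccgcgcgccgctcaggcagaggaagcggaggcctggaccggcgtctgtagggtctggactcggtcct
Atg16l2 (chr7:101302039-101302338, minus strand): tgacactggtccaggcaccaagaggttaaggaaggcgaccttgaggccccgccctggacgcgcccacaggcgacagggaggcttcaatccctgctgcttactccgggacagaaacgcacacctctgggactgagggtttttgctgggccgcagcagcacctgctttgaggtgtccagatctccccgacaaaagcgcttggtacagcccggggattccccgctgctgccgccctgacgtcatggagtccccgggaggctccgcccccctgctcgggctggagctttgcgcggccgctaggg

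The CACGTG core lay 3 bases after the annotated start of Atp6v0e. In Ctsa it began 12 bases before and again 5 bases after the second of 2 listed starts, whose window is shown, while the window at the other start held none. The windows of Ctso, Atg101 and Atg16l2 did not contain these letters. Of 59 members, 47 had a promoter in the table. CACGTG occurred in 13 of them (27.7%), against 8.06% of the other genes. The longer TCACGTGA, which contains the core and, like it, reads the same on both strands, occurred in 7 (14.9%), against 1.10% of the other genes. Over single windows of 300 bases the shares in the whole table were 7.15% and 0.974%. Those 7 were Atp6v0e, Ctsa, Atp6v0d1, Atg3, Ctsd and Mcoln1, with ratios from −0.51 to −0.08, and Atp6v1a at 0.17. The median ratio of the 7 was −0.19, and that of the 32 other members with a promoter above the floor was −0.00. For the CACGTG core the gap was smaller, with a median of −0.08 over the 13 members that held it and −0.01 over the 26 that did not. Neither difference was tested. The 7 with the longer site included 1 autophagy gene and the 32 others 15, so the classes were spread unevenly over these groups. TFEB is known to bind this site in many of these genes, so its larger share among them is no separate finding. A match describes these letters only and shows no binding.

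In the V1 part of the pump 3 of 10 genes above the floor passed 1.2-fold, all lower with bezafibrate, against 10.4% lower and 9.58% higher among all genes. Atp6v1d and Atp6v1f encode the central rotor stalk. Atp6v1d (probe set 17282104) had a log2 level of 8.01 with bezafibrate and 8.33 with DMSO, 1.25-fold lower. Atp6v1f (17456678) had 5.50 with bezafibrate and 5.81 with DMSO, 1.24-fold lower. Both rotor genes were thus lower by a similar ratio, −0.32 for Atp6v1d and −0.31 for Atp6v1f. The ATP-splitting head is built from A and B subunits. Atp6v1a, the catalytic A subunit, had 7.59 with bezafibrate and 7.42 with DMSO, a ratio of 0.17. Atp6v1b2, the widely expressed B subunit, had 8.42 with bezafibrate and 8.56 with DMSO, a ratio of −0.14. A second probe set of Atp6v1b2 had 5.85 with bezafibrate and 6.34 with DMSO, so that its ratio was larger, −0.49, on the same side. The head's genes therefore lay on opposite sides of 0.

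The outer stalks hold the head still, and among their genes the G subunit stood lowest. Atp6v1g1 (17414760), the widely expressed G subunit, had 7.30 with bezafibrate and 7.60 with DMSO, 1.23-fold lower. Its further probe sets, both within background, had ratios of −0.18 and −0.16. Atp6v1e1, the E subunit, read exactly 7.79 on both arrays. Such exact ties occurred in 5.28% of all genes, and here also in Atg4b and Atp6v0d2. The C subunit gene Atp6v1c1 had 7.55 with bezafibrate and 7.56 with DMSO. Atp6v1h, the regulatory H subunit that couples ATP splitting to the rotor, had 7.05 with bezafibrate and 6.96 with DMSO, a ratio of 0.09. Of these stalk and regulatory genes, Atp6v1g1 alone passed 1.2-fold.

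In the membrane part, the small subunit gene Atp6v0e differed most. Atp6v0e (17334948) had 8.66 with bezafibrate and 9.16 with DMSO, 1.42-fold lower. Among all genes above the floor 128 had a lower ratio, and of the 1145 genes in the same of 10 equal classes by level 6 did. Its paralogue Atp6v0e2 went the other way, at 5.10 with bezafibrate and 4.89 with DMSO (ratio 0.22), the DMSO level being close to the floor. Atp6v0d1, which seats the rotor on the proton-carrying ring, had 8.23 with bezafibrate and 8.45 with DMSO, a ratio of −0.22. Atp6v0b, a ring subunit, had 7.79 with bezafibrate and 7.86 with DMSO. The a subunits form the proton path: Atp6v0a1 had 7.27 with bezafibrate and 7.24 with DMSO, and Atp6v0a2 had 9.27 with bezafibrate and 9.22 with DMSO. The ratios of these a subunits were 0.02 and 0.05, among the smallest of the pump. The ring subunit Atp6v0c was not analysed here.

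Several pump subunits are known from kidney, bone, testis or brain, and 4 of 7 read as background here. Atp6v1c2, Atp6v1g3, Atp6v0a4 and Atp6v0d2 lay within background on both arrays, with ratios from 0.00 to 0.65. The value of 0.65 belongs to Atp6v1g3, at 4.16 with bezafibrate and 3.51 with DMSO, where a ratio has no reading. Atp6v1b1 had 4.50 with bezafibrate, within background, and 4.85 with DMSO, just over it. Atp6v1g2, known from brain, had 6.42 with bezafibrate and 6.66 with DMSO, and Atp6v1e2, known from testis, had 5.29 with bezafibrate and 5.46 with DMSO. Atp6v1fnb, named for its place beside Atp6v1f, had 5.38 with bezafibrate and 5.13 with DMSO. In all, the 17 pump symbols above the floor comprised 10 lower, 6 higher and 1 equal, and their median was −0.07. The shares over all genes above the floor were 49.6% lower and 48.4% higher. Centred on housekeeping genes, 9 of the 17 were lower and 8 higher. Relative to genes similar in level and length, 12 were lower, 4 higher and 1 equal. At 1.2-fold 4 of the 17 pump symbols were lower and 0 higher, against the background shares of 10.4% and 9.58%. The median depended on which symbols were counted: it was −0.00 without the tissue-restricted subunits, −0.10 without Atp6v1fnb and −0.03 without either. By part, the 10 V1 genes above the floor had a median of −0.16 and the 6 V0 genes −0.02. The V1 genes counted here include the tissue-restricted Atp6v1g2 and Atp6v1e2, at −0.23 and −0.18. After subtracting the median of genes similar in level and length, the medians were −0.12 for V1 and −0.06 for V0.

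Cathepsins were lower in 8 of 9 cases above the floor, by small amounts, with a median of −0.05, where 49.6% of all genes were lower. The count was 5 of 9 when ratios were centred on housekeeping genes, and also 5 of 9 relative to the median of genes similar in level and length. Ctsa (17379560), a serine carboxypeptidase that also stabilises other lysosomal enzymes, had 8.52 with bezafibrate and 8.77 with DMSO, 1.19-fold lower. Ctsw, a cathepsin made mainly by cytotoxic T and natural killer cells, had 10.72 with bezafibrate and 10.88 with DMSO, a ratio of −0.16. With that median subtracted, the ratio of Ctsw was 0.01. Ctsd, the main aspartic protease of the lysosome, had 10.46 with bezafibrate and 10.61 with DMSO, a ratio of −0.14. These 3 were the lowest of the class. Ctsc, the activator of progranzymes, had 8.67 with bezafibrate and 8.69 with DMSO. Ctss, a cysteine protease that trims the invariant chain of MHC class II, had 8.39 with bezafibrate and 8.47 with DMSO. Ctsb had 9.14 with bezafibrate and 9.19 with DMSO, and Ctsz had 8.14 with bezafibrate and 8.17 with DMSO. Ctsl read close to the floor at 4.92 with bezafibrate and 4.93 with DMSO. Ctso (17398430), a cysteine cathepsin, was the exception among those above the floor, at 6.92 with bezafibrate and 6.61 with DMSO, 1.24-fold higher. Ctsh lay within background on both arrays.

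Lamp1 and Lamp2, the abundant glycoproteins that line the lysosomal membrane, were both lower with bezafibrate. Lamp1 (17499279), whose exposure on the surface marks T cells that have released their granules, had 8.84 with bezafibrate and 9.16 with DMSO, 1.25-fold lower. Lamp2 had 7.63 with bezafibrate and 7.75 with DMSO, a ratio of −0.12. Lamp3 and Lamp5, members known from dendritic cells and neurons, lay within background. Tfeb had 5.04 with bezafibrate and 5.15 with DMSO, a ratio of −0.11. Mcoln1, a lysosomal calcium channel whose opening activates TFEB, had 7.39 with bezafibrate and 7.47 with DMSO. The promoter window of Lamp1 held CACGTG 4 times, the most of any member.

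The autophagy genes of the set leaned upward, with 12 of 19 above the floor higher, 6 lower and 1 equal. Their median was 0.08, and 48.4% of all genes were higher. Of the 19, 2 passed 1.2-fold upward and 0 downward, where 9.58% and 10.4% of all genes did. The upward count was thus near the background. Atg16l2 (17493880), a relative of the Atg16l1 scaffold, had 6.50 with bezafibrate and 6.16 with DMSO, 1.26-fold higher. Atg10 (17294785), which joins ATG12 to ATG5, had 5.72 with bezafibrate and 5.45 with DMSO, a ratio of 0.26 and just past 1.2-fold. The other genes of that conjugation step were higher too, with Atg5 at 7.27 with bezafibrate and 7.08 with DMSO. Atg12, the ubiquitin-like partner of Atg5, had 6.45 with bezafibrate and 6.32 with DMSO. Atg16l1 had 7.29 with bezafibrate and 7.21 with DMSO. Atg7, the E1 enzyme of both conjugation steps, had 7.02 with bezafibrate and 6.97 with DMSO, a ratio of 0.06 and the smallest of these. After subtracting the median of genes similar in level and length, Atg12 had 0.22, Atg5 0.10, Atg16l1 0.004 and Atg7 −0.03. In the step that joins LC3 proteins to lipid, Atg3, its E2 enzyme, had 8.61 with bezafibrate and 8.80 with DMSO, a ratio of −0.19. The ATG4 proteases that prime LC3 proteins were mixed. Atg4a had 7.16 with bezafibrate and 7.00 with DMSO, a ratio of 0.16. Atg4b read 6.54 on both arrays, and Atg4d had 6.46 with bezafibrate and 6.52 with DMSO. Atg4c lay within background. The 10 conjugation genes above the floor had a median of 0.10.

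Genes of initiation and of lipid supply to the growing membrane also lay on both sides of 0. Ulk1, the initiating kinase, had 7.04 with bezafibrate and 7.16 with DMSO, a ratio of −0.12. Its partners differed: Atg13 had 7.06 with bezafibrate and 6.87 with DMSO, a ratio of 0.19, whereas Atg101 had 6.25 with bezafibrate and 6.45 with DMSO, a ratio of −0.20. Atg2b, a lipid transfer protein, had 6.40 with bezafibrate and 6.20 with DMSO, a ratio of 0.21, and its paralogue Atg2a had 6.99 with bezafibrate and 6.91 with DMSO, a ratio of 0.08. Becn1 and Atg14 belong to the lipid kinase complex that marks the membrane. Becn1 had 7.49 with bezafibrate and 7.42 with DMSO, and Atg14 read 5.53 on both arrays to 2 decimals. The lipid scramblase gene Atg9a had 6.63 with bezafibrate and 6.54 with DMSO. Atg9b lay within background. The median of the 8 genes above the floor was 0.08. Sqstm1, the p62 cargo receptor and also a target of NRF2, had 8.46 with bezafibrate and 8.61 with DMSO, a ratio of −0.15.

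**Figure D2:**
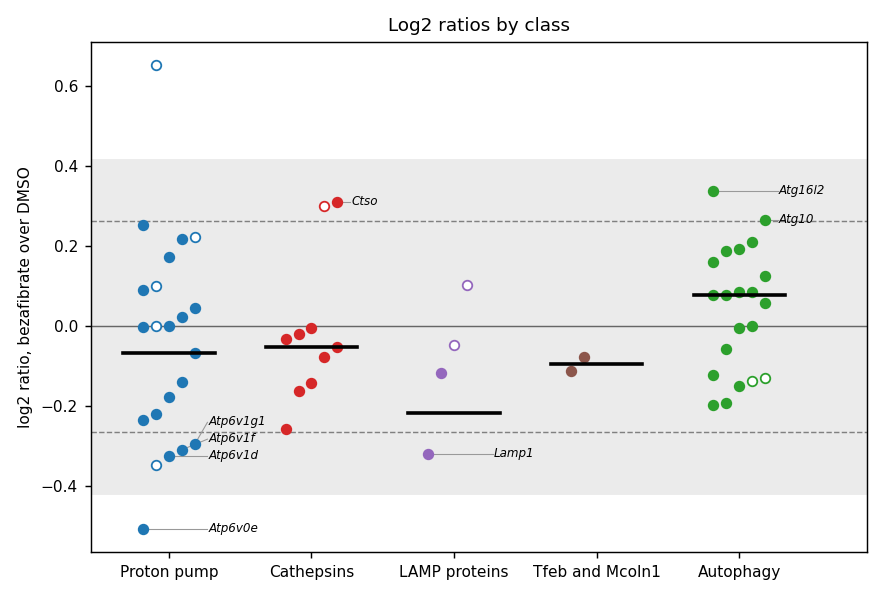
Log2 ratio of bezafibrate over DMSO (vertical axis) for each of the 59 members by class, filled above the floor and open below it, with a bar at the median of the filled points. Grey marks the central 95% of all genes above the floor, −0.42 to 0.41, and dashed lines mark 1.2-fold. Among filled points only Atp6v0e leaves the grey band.

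Set side by side, the medians were −0.07 for the pump, −0.05 for cathepsins and 0.08 for autophagy genes. The pump lay 0.14 below autophagy on the log2 scale, a difference of −0.14 with no error and no test. It kept its sign under the 13 alternatives tried, between −0.18 and −0.08. Not all of these could move it: centring on housekeeping genes cannot change a difference of medians. The alternatives that changed the probe set also left it at −0.14. The ranges overlapped broadly, from −0.51 to 0.25 in the pump, from −0.26 to 0.31 in cathepsins and from −0.20 to 0.34 in autophagy genes. With every member counted, also those under the floor, the medians were −0.00 over 22 pump symbols, −0.04 over 10 cathepsins and 0.08 over 21 autophagy genes.

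Gene length moved with these ratios. Of all genes above the floor, split into 4 equal classes by length, 64.5% of the shortest class were lower, with a median ratio of −0.09, while in the longest class 31.5% were lower and the median was 0.08. The Spearman correlation between length and ratio was 0.38 across the 49 members and 0.28 across all 11430 genes with a length. Genes are not independent replicates, and all of them share the same 2 arrays. The shortest class held 7 pump symbols, 1 cathepsin and 1 autophagy gene, and the longest 4, 0 and 5. After subtracting the median of genes similar in level and length, the class medians were −0.06 for the pump, −0.03 for cathepsins and 0.07 for autophagy genes. Atp6v0e then had −0.49, Atp6v1d −0.31, Lamp1 −0.30, Atg16l2 0.37 and Ctso 0.28. Atp6v1f had −0.23 and Atp6v1g1 −0.16. Atg10, one of the longest genes of the set, had 0.15.

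**Figure D3:**
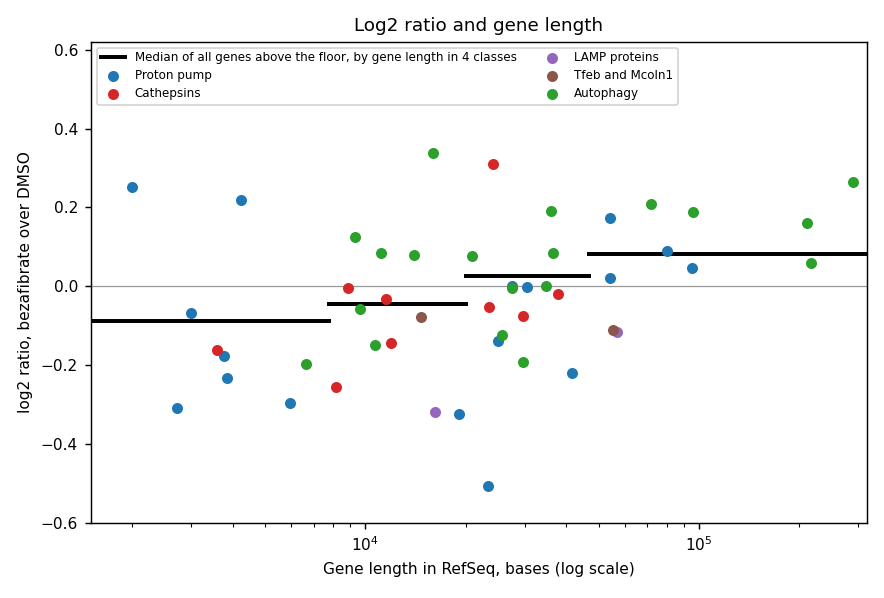
Log2 ratio of bezafibrate over DMSO (vertical axis) against gene length in RefSeq (horizontal axis, bases, log scale) for the 49 members above the floor, coloured by class. Black lines are medians of all genes above the floor in 4 equal classes by gene length, from −0.09 in the shortest to 0.08 in the longest, with the outer classes drawn only within the plotted range.

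Genes of the same organelle outside the set gave a similar picture of small differences. Other lysosomal hydrolases and activators numbered 35 above the floor, and 23 of them were lower, 12 were higher and the median was −0.05. Among all genes 49.6% were lower and 48.4% higher. At 1.2-fold 5 of the 35 were lower and 1 higher, where the shares over all genes were 10.4% and 9.58%, and the lower count was near its share. Naglu, which degrades heparan sulfate, had 6.39 with bezafibrate and 6.84 with DMSO, a ratio of −0.44. Hexa, a subunit of β-hexosaminidase, had 7.07 with bezafibrate and 7.46 with DMSO, and Acp5, an acid phosphatase, had a ratio of −0.34. Galc, Arsa and Manba had ratios of 0.30, 0.22 and 0.20. Further membrane, channel and pump genes numbered 25, of which 15 were lower and 10 higher (median −0.02). Mcoln3, whose DMSO level of 4.79 lay under the floor, was highest at 0.32, followed by Scarb2 at 0.21 and Hgsnat at 0.20, and Tmem192, Slc17a5 and Abca2 were lowest at −0.27, −0.27 and −0.23. Pump genes under other names, picked for their role, were Tcirg1 (the a3 subunit) at 7.76 with bezafibrate and 7.92 with DMSO and the accessory genes Atp6ap1 at −0.16 and Atp6ap2 at −0.00.

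Genes that sort enzymes to the lysosome divided into 13 lower and 9 higher (median −0.03). The shares over all genes above the floor were 49.6% lower and 48.4% higher. Gnptg and Gnptab, subunits of the enzyme that makes the mannose 6-phosphate tag, had ratios of −0.32 and 0.18, and Cltc, the clathrin heavy chain, had 0.26. Nagpa, Ap1s1 and Sort1 had −0.24, −0.18 and 0.17. The DMSO level of Sort1, 4.80, lay under the floor, and another probe set of Sort1 read 4.45 on both arrays, within background. Cystatins and serpins listed as cathepsin inhibitors and above the floor were lower in 5 of 5 cases, where 49.6% of all genes were lower. After subtracting the median of genes similar in level and length, their median was −0.09, from −0.25 in Cst3 to −0.01 in Serpinb9. Cst3, which encodes cystatin C, had 6.90 with bezafibrate and 7.27 with DMSO, a ratio of −0.37 (−0.12 on another probe set), and Cstb, a cystatin of the cytosol, had −0.29. Cst7, the cystatin of cytotoxic lymphocytes that restrains cathepsin C, had 9.21 with bezafibrate and 9.30 with DMSO. Serpinb9 and Serpinb6a had ratios of −0.03 and −0.02. Of the 13 cathepsins outside the set 12 lay within background on both arrays, and Ctse, an endosomal aspartic protease, had 6.37 with bezafibrate and 6.78 with DMSO.

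Among 31 other autophagy genes above the floor 14 lay lower and 17 higher (median 0.02). The shares over all genes above the floor were 49.6% lower and 48.4% higher. After subtracting the median of genes similar in level and length, the median of these 31 was −0.02. Rb1cc1, a partner of ULK1 that is also called FIP200, had 7.00 with bezafibrate and 6.72 with DMSO, a ratio of 0.27. Stx17 and Uvrag had 0.23 and 0.21, and Vamp8, a SNARE of the lysosome, Vps18 and Map1lc3a had −0.36, −0.34 and −0.28. Another probe set of Vps18 had −0.18. Where 49.6% of all genes were lower, the cargo receptor list had 11 of 15 lower, with a median of −0.03. Relative to genes similar in level and length that median was −0.05. Pink1, the kinase that marks damaged mitochondria, was lowest at 6.06 with bezafibrate and 6.52 with DMSO, a ratio of −0.46. Tex264 and Retreg1 had −0.25 and −0.18, and Fundc1, Ncoa4 and Nbr1 had 0.15, 0.15 and 0.07. TFEB relatives and nutrient sensors divided into 12 lower and 14 higher. Zkscan3, described as a repressor of autophagy genes, had 6.66 with bezafibrate and 6.32 with DMSO, a ratio of 0.35, while Akt1s1 and Mtor had 0.25 and 0.22. Tsc1, Lamtor4 and Lamtor1 had −0.32, −0.31 and −0.27.

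**Figure D4:**
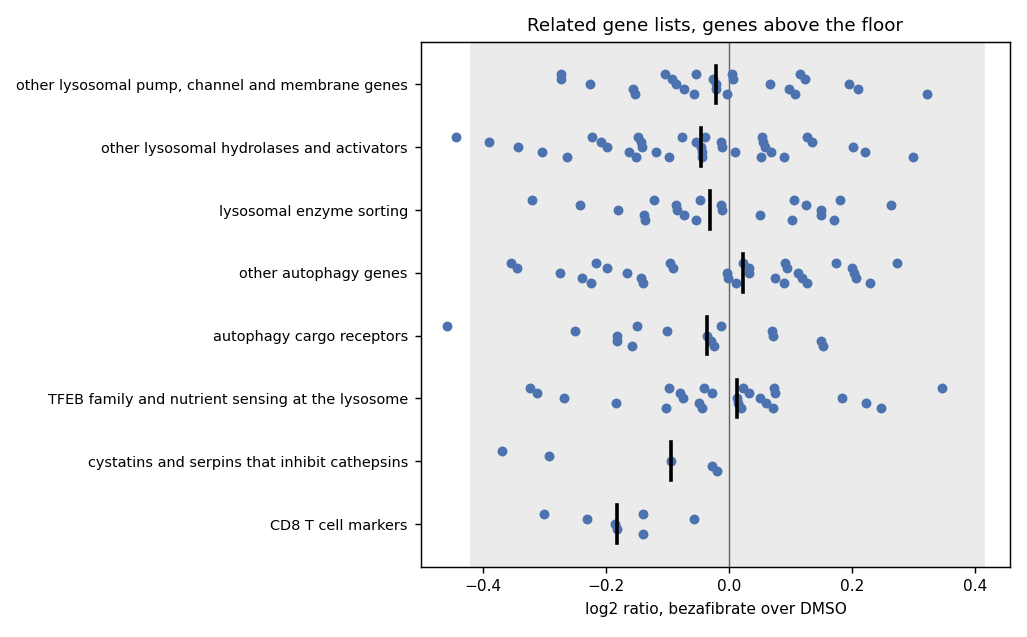
Log2 ratio of bezafibrate over DMSO (horizontal axis) of genes above the floor in 7 related gene lists and in the CD8 T cell markers, 1 point a gene, with a bar at each list's median and grey for the central 95% of all genes above the floor. The CD8 markers have the lowest median, −0.18, and the other lists run from −0.09 to 0.02.

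Markers of other cell types were read beside these genes. Of 11 macrophage and monocyte markers 9 lay within background on both arrays, among them Lyz2, Adgre1, Cd14 and Itgam. The summed linear signal of all 11 was 175 with bezafibrate and 173 with DMSO. With 9 of the 11 within background, these sums hold largely background signal and do not measure how many such cells were present. C1qa, at 4.88 with bezafibrate and 5.03 with DMSO, and Csf1r, at 4.80 with bezafibrate and 4.73 with DMSO, were just above background. Of 6 dendritic cell markers 4 lay within background on both arrays. Their sum, 473 with bezafibrate and 618 with DMSO, came mostly from Cd209a, at 8.55 with bezafibrate and 9.00 with DMSO. Another probe set of Cd209a lay within background on both arrays, at 3.86 with bezafibrate and 3.98 with DMSO. Of 5 B cell markers 3 lay within background on both arrays. Their sum was 495 with bezafibrate and 617 with DMSO, mostly from Ighm, at 8.72 with bezafibrate and 9.05 with DMSO. Ighm had 7 probe sets: those above background had ratios from −0.33 to −0.26, and those within it from −0.73 to 0.33. Cd79b had 4.85 with bezafibrate and 5.41 with DMSO, a ratio of −0.55. The part of such cells in the ratios of lysosomal genes was not tested.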

How the data were processed

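Total RNA of 1 bezafibrate and 1 DMSO culture was amplified with a whole-transcript kit and hybridised to Affymetrix arrays, per the labels' protocols. The authors' values, per the submitters' processing notes, come from RMA as run by Affymetrix Expression Console; its version is not given in the sources used here. The deposited numbers span a log2 range, from 0.79 to 12.64 with bezafibrate and from 0.75 to 12.68 with DMSO. RMA equalises the arrays, so a shift common to the majority of genes is hidden, and it shrinks differences at low signal. Ratios nonetheless spread more widely at low signal here. Among genes above the floor in the level class of Ctsl, the central 95% ran from −0.55 to 0.55. In the level class of the brighter Ctsd it ran from −0.37 to 0.32. The number of arrays limits the precision.

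Of 33793 probe sets with values, 23521 named 1 gene in the platform annotation, 1814 several and 8458 none; those with 1 were used. Where a gene had several, the one with the highest mean stood for it. All 59 members matched RefSeq (GRCm38.p6) for gene length and 47 for a promoter. No build is named for the arrays, so coordinates are given only for RefSeq promoters.

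The members and lists were chosen with earlier results of these data known. Members above the floor were named, with up to 3 highest and 3 lowest genes above the floor of each related list and a few genes added for their role after their values were seen. Gene counts at 1.2-fold and 1.5-fold, class medians and the alternatives were computed with Python 3.11.15, numpy 2.4.6, pandas 2.3.3 and statsmodels 0.14.6, tested on simulated data; plots used matplotlib 3.10.9. The alternatives changed the floor, the normalization between arrays, the probe set that stands for a gene, the trend with level and length, the summary of a class and the pump symbols counted.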

Additional observations from a re-analysis of the deposited data

How the results depend on the processing

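With 1 array a group no replicate could be left out. No paired analysis was possible because each group has 1 sample. With no replicate spread, whether a shift of a class median is large could not be judged. The medians ran from −0.10 to −0.00 for the pump, from −0.06 to −0.02 for cathepsins and from 0.06 to 0.11 for autophagy genes over 13 alternatives, of which the one without Atp6v1fnb was added after seeing the data. The pump's −0.07 was reduced to −0.00 with no floor and without the tissue-restricted subunits. The median of all 49 members, −0.02, reversed to 0.0138 when centred on 12 housekeeping genes, whose own median was −0.03, and kept its sign under the other alternatives. The count of lower members, 28, ran from 20, with the floor at the 75th percentile and 33 members left, to 32, with no floor. Of the 49 single ratios, 35 kept their sign under all 7 alternatives run on them, including the 8 past 1.2-fold. The alternatives that changed the probe set left the single ratios unchanged except in Atp6v1b2 and Atp6v1g1, the 2 members with more than 1. For the other members a sign kept under these alternatives is no check. Ratios whose sign changed were all under 1.2-fold, among them Ctsw (−0.16 to 0.01), Atp6v0b (−0.09 to 0.11) and Atg7 (−0.03 to 0.09). Low signal limits Ctsl, Tfeb, Atp6v0e2 and Atp6v1fnb, which read close to background.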

Other observations

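The LC3 and GABARAP genes, which encode the ubiquitin-like proteins that the ATG enzymes attach to the autophagosome membrane, were lower with bezafibrate in 5 of 5 cases. Among all genes above the floor 49.6% were lower. The LC3 and GABARAP group was picked after its values were seen. Map1lc3b had 8.03 with bezafibrate and 8.25 with DMSO, Gabarap 10.21 with bezafibrate and 10.40 with DMSO, and Gabarapl2 6.90 with bezafibrate and 7.14 with DMSO. Map1lc3a and Gabarapl1 had ratios of −0.28 and −0.17, and another probe set of Gabarap had −0.64. The median ratio was −0.22, whereas the 10 conjugation enzymes above the floor had 0.10. After subtracting the median of genes similar in level and length, the 5 genes had ratios from −0.21 to −0.02 with a median of −0.15. The 10 conjugation enzymes then had a median of 0.05. The difference between the groups was not tested.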
